A study of Arabidopsis thaliana with 18 samples.

Results

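The 144 genes described here were lowered by lysoPAF and restored by ONO in roots of the Arabidopsis lpcat mutant. They were chosen by a rule on the deposited normalized counts, which are read counts divided by a size factor for the depth of each library. A gene had to average at least 20 in replicates 1 and 3 of lpcat on control medium, to average at most 1/2 of that in lpcat with lysoPAF, and to average at least 2 times the lysoPAF level in lpcat with lysoPAF and ONO. Of 35197 rows in the table, 17179 met the first condition, 550 of these also met the second, and 144 met the third, which leaves 406 that were lowered but not restored. The 6 groups of 3 libraries each came from roots of Col-0 seedlings collected 5 days after germination on 1/2 MS medium. They were lpcat lysoPAF+ONO, lpcat lysoPAF, lpcat control, WT lysoPAF+ONO, WT lysoPAF and WT control, where lpcat is the lpcat1/lpcat2-2 double insertion mutant and WT is the Col-0 wild type. LysoPAF was supplied at 20 µg/mL with or without ONO-RS-082 (ONO) at 50 µM by the sample labels. The study's results and a figure legend give the same figure for ONO in µg/mL. No group received ONO without lysoPAF, so a response to ONO by itself cannot be told apart from one to both compounds. The mutant is a single line, and nothing in the labels tells if replicate libraries came from separate plates or harvests, so that p-values measure only the spread between these libraries.

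The Lands cycle remodels phosphatidylcholine in membranes. Phospholipase A2 removes an acyl chain to give lysophosphatidylcholine (LPC), and the acyltransferases LPCAT1 and LPCAT2 put an acyl chain back. LysoPAF is an analog of LPC whose alkyl chain is held by an ether bond, while ONO blocks phospholipase A2. Roots take up nitrate, potassium and sulfate through membrane transporters, build walls with extensins and secreted peroxidases, and carry many receptor kinases and pathogenesis-related proteins at the surface that faces the soil. Members of each of these groups are among the 144 genes.

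Libraries held 8681898 to 16767002 reads in genes. LPCAT1 (AT1G12640) lay between 47.3 and 72.2 normalized counts in the 9 lpcat libraries, against 247 to 342 in the 9 WT libraries, while LPCAT2 (AT1G63050) lay between 435 and 774 in lpcat against 186 to 234 in WT, so a count over the whole gene does not show the insertion in LPCAT2. One library stood apart from its label, since replicate 2 of lpcat control lay near the lpcat lysoPAF libraries for most of the genes described here. The rule left it out. The sum of 10 genes of shoot photosynthesis also differed within groups. It was 1085, 2845 and 3164 normalized counts in lpcat lysoPAF+ONO, 2774, 880.0 and 1592 in lpcat lysoPAF, and 4719, 717 and 5144 in lpcat control replicates 1, 2 and 3. The WT sums were 1218, 1304 and 1905 with lysoPAF+ONO, 1650, 1617 and 1815 with lysoPAF and 1860, 1868 and 5392 on control medium. 2 of the 144 genes, RBCS3B and RBCS2B, stand in that list of 10, and its part in the other results was not tested.

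**Figure D1:**
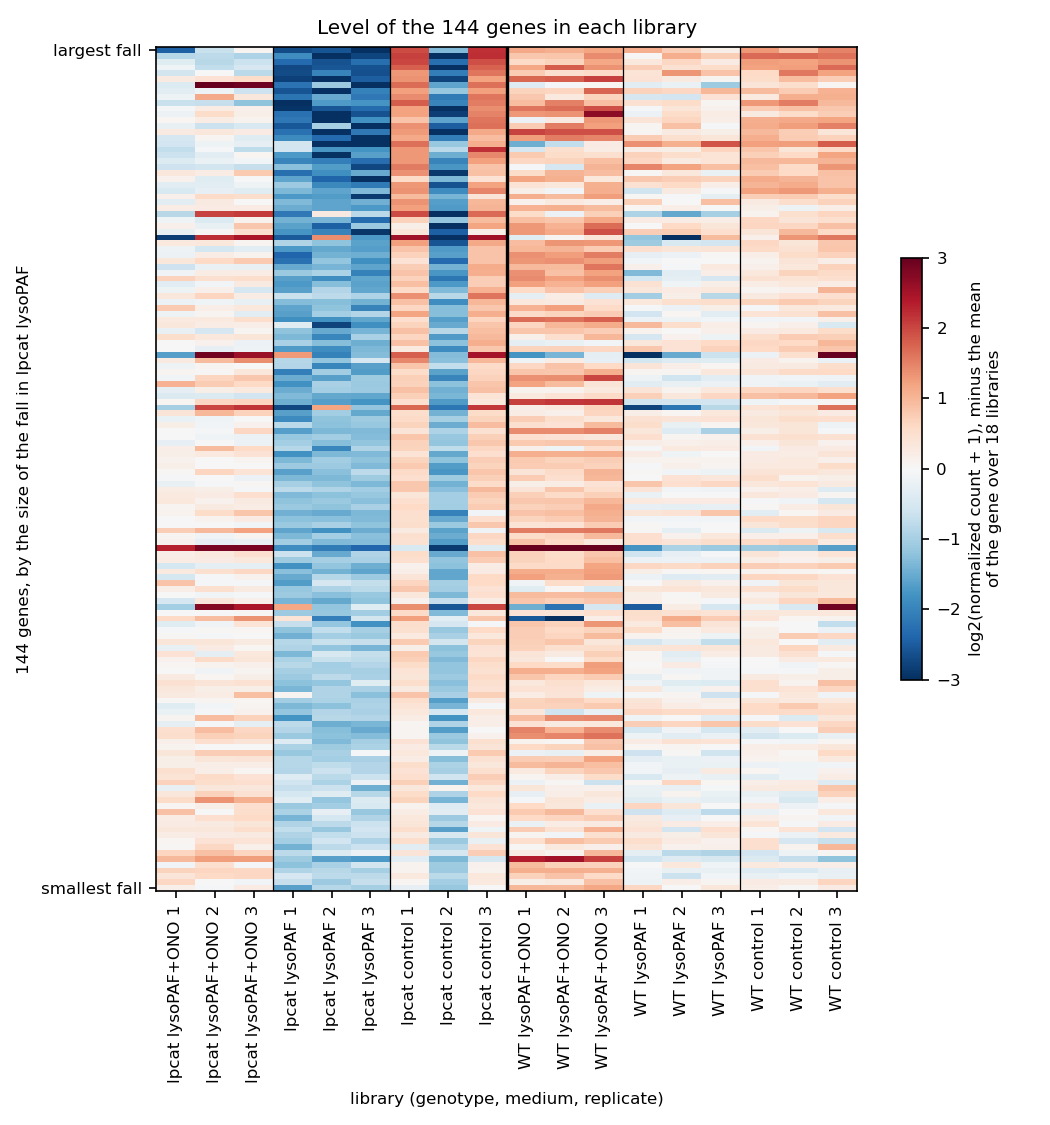
Level of each of the 144 genes (rows, from the largest fall in lpcat lysoPAF at the top to the smallest) in each of 18 libraries (columns), as log2(normalized count + 1) minus the mean of the gene over the libraries, with the colours ending at 3 in either direction. The column of lpcat control replicate 2 resembles the lpcat lysoPAF columns, whereas the 9 WT columns show no such band.

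The fall and the return in lpcat are what the rule used, so they are given as values with no test. In lpcat with lysoPAF the genes stood at a median of 26.8% of the mean of lpcat control replicates 1 and 3, with a range of 1.27% to 49.9%. The fall was over 4-fold for 64 genes and over 10-fold for 20. In lpcat with lysoPAF and ONO the median was 76.9% of the same control mean, with a range of 12.2% to 867%. The level on ONO was at or above the control mean for 28 genes and still under 1/2 of it for 30 genes, so that restored here means at least 2 times the lysoPAF level and not a return to control. All 3 lpcat lysoPAF libraries lay below lpcat control replicates 1 and 3 for all 144 genes. All 3 lpcat lysoPAF+ONO libraries lay above all 3 lpcat lysoPAF libraries for 137 of them. The rule used the means of these same libraries and so shaped both counts, which add no support. The shares over all genes were not taken.

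Genes just inside and just outside the rule had nearly the same values. AT1G52800, AT1G28590 and AT2G32550 passed the first condition at 22.2, 22.4 and 22.7 normalized counts, and AT5G22430, AT5G56840 and AT5G59270 missed it at 19.5, 18.9 and 18.04. For the fall, DRM2, PDF1 and AT1G65570 were inside at 2.00, 2.00 and 2.02-fold, while AGL14, CCL and AT1G49000 were outside at 1.98, 1.98 and 1.94-fold. For the return, AT2G37750, UGT72E1 and AT3G54040 were inside at 2.01-fold each, and GLP4, AT1G17230 and NPF2.5 were outside at 1.98, 1.98 and 1.97-fold.

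Replicate 2 of lpcat control took no part in the choice. It lay below both other lpcat control replicates for all 144 genes, at a median of 24.3% of their mean, which is close to the median of the lpcat lysoPAF libraries. It was inside the range of the 3 lpcat lysoPAF libraries for 66 genes, below all of them for 52 and above all of them for 26. The rule asked for high values in replicates 1 and 3 and for low ones with lysoPAF, and so shaped these counts. Their shares over all genes were not taken. Replicate 2 was at most 1/2 of the mean of replicates 1 and 3 for 135 of the 144 genes, or 93.8%. The same was true of 86.5% of the 406 genes that were lowered but not restored and of 4.53% of all 17179 genes over the first condition. With replicate 2 taken into the control mean, 107 of the 144 genes still met the rule. That mean still holds replicates 1 and 3, which chose the genes, so the count cannot show a fall against replicate 2. Why this library differed was not tested.

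**Figure D2:**
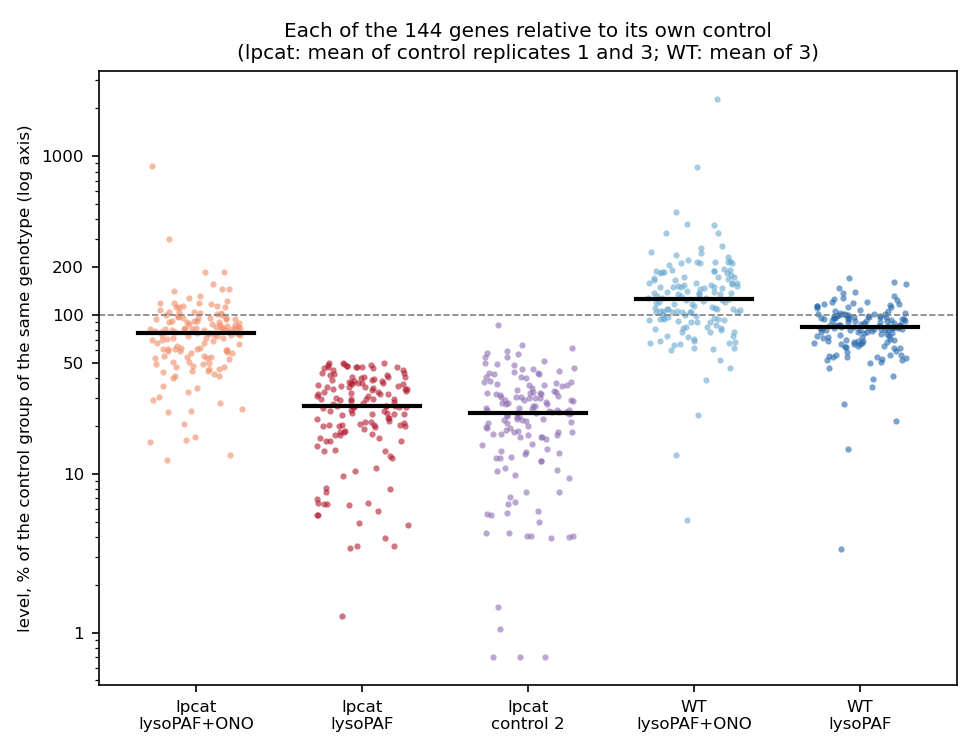
Mean level of each of the 144 genes (points) as a percentage of the control of the same genotype, on a log axis, with a black line at the median. Medians were 76.9% in lpcat lysoPAF+ONO, 26.8% in lpcat lysoPAF, 24.3% in lpcat control replicate 2, 125% in WT lysoPAF+ONO and 83.5% in WT lysoPAF, and the 3 genes at 0 in lpcat control replicate 2 are drawn at the lower edge.

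What the same genes did in WT roots was asked in the 9 WT libraries, which the rule did not use. Each comparison was tested by limma on log2(normalized count + 1) over 23760 genes, all 144 among them, and a gene was called at an adjusted p under 0.05 (Benjamini-Hochberg). With lysoPAF and ONO, WT roots had more RNA of many of these genes than with lysoPAF alone. 67 of the 144 genes, or 46.5%, were higher, beside 5.34% of all tested genes, and 5 genes, or 3.47%, were lower, beside 2.85% of all. The median log2 fold change was 0.62 over the 144 genes and 0.00 over all tested genes. Against WT control, WT lysoPAF+ONO was higher for 51 of the 144 genes, or 35.4%, beside 7.70% of all tested genes, and lower for 5 genes beside 4.72% of all, with a median log2 fold change of 0.33 over the 144 genes and -0.01 over all. These 2 comparisons share the WT lysoPAF+ONO libraries. Root hair markers also differed. Of 9 tested root hair genes, none of them among the 144, 2 were higher and 1 lower in WT lysoPAF+ONO than in WT lysoPAF and 8 were higher than in WT control, and their summed level was 17094 to 19044 normalized counts in WT lysoPAF+ONO, 11655 to 16281 in WT lysoPAF and 10501 to 12733 in WT control, with none of the 9 at 0. Their part in the result was not tested. When libraries were scaled to equal totals, the share of higher genes among all calls was 43.0% in place of 65.2% for lysoPAF+ONO against lysoPAF, where the 144 genes gave 65 higher and 5 lower, and 51.2% in place of 62.0% for lysoPAF+ONO against control, where they gave 48 higher and 6 lower. A fit of all 18 libraries takes in the spread of lpcat control replicate 2. It called 23 of the 144 genes higher against lysoPAF, beside 884 of all, and 17 against control, beside 1520 of all. The 5 lower genes against lysoPAF were 1, 2 and 0 without WT lysoPAF replicate 1, 2 and 3 and 1 without WT lysoPAF+ONO replicate 1 or 2, and the 5 lower genes against control were 3 without WT control replicate 2 or 3, 2 without WT lysoPAF+ONO replicate 2 and 11 without WT lysoPAF+ONO replicate 3.

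LysoPAF alone gave fewer calls among these genes in WT. Against WT control, WT lysoPAF was lower for 17 of the 144 genes, or 11.8%, beside 1.92% of all tested genes, and higher for 0 of them, beside 2.53% of all. All 3 WT lysoPAF libraries lay above all 3 WT control libraries for 11 of the 144 genes, beside 12.7% of all tested genes. At an unadjusted p under 0.05 in limma there were 8 higher and 55 lower genes, beside 2520 higher and 2514 lower of all 23760 tested genes. edgeR called 3 higher and 38 lower, beside 1118 and 706 of all. DESeq2 called 2 higher and 30 lower, beside 825 and 601 of all. The lower genes among the 144 were 39 when a mean of at least 10 was asked of every gene, beside 779 over all genes. They were 10 with no filter, beside 362 over all, and 0 with all 18 libraries in 1 fit, beside 214 over all. The median log2 fold change was -0.25 over the 144 genes and -0.01 over all. By mean level, the genes stood at a median of 83.5% of WT control, and 9 of them were at most 1/2 of it. The 17 falls were sensitive to single libraries. The count was 7, 4 or 6 without WT control replicate 1, 2 or 3, 6, 8 or 5 without WT lysoPAF replicate 1, 2 or 3, and 9 or 11 without WT lysoPAF+ONO replicate 1 or 2. With equal totals the share of higher genes among all calls of this comparison was 69.8% in place of 56.8%, and the 144 genes gave 0 higher and 16 lower. In simulated data for this comparison limma called 66% of genes lowered to 0.5 and 92% of genes lowered to 0.333, so some falls of those sizes would be missed. Only 9 of the 144 genes fell that far in WT. Smaller falls were not simulated, so the share of them that would be missed is not known.

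**Figure D3:**
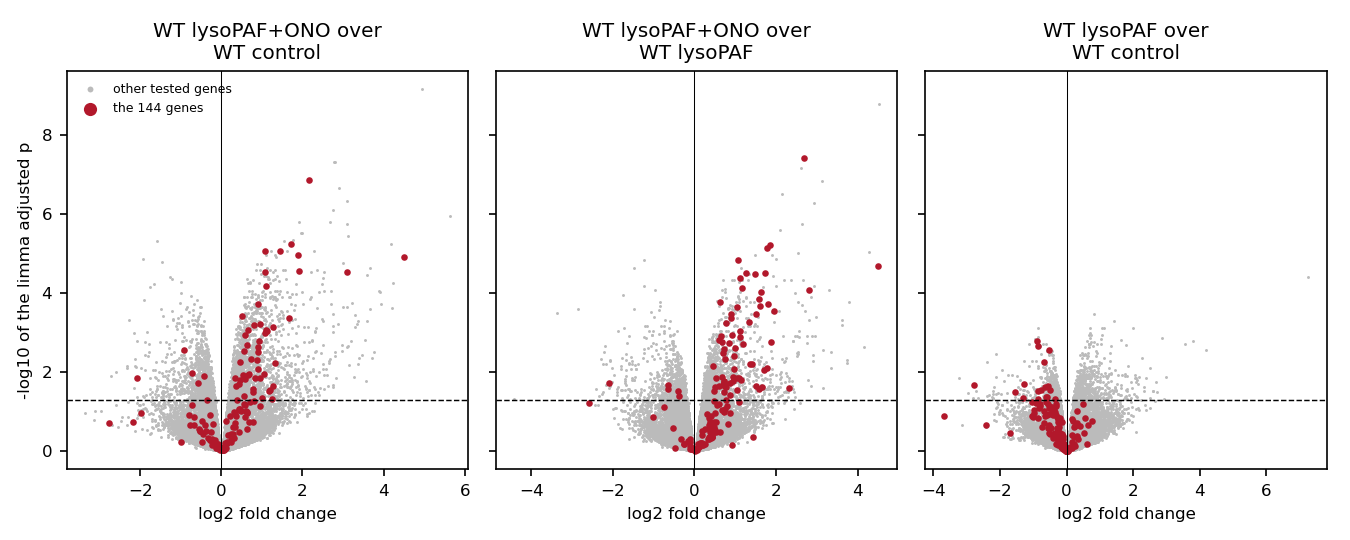
limma results in WT for the 144 genes (red) and all other tested genes (grey), with the log2 fold change on the horizontal axis, -log10 of the adjusted p on the vertical axis and a dashed line at an adjusted p of 0.05. 51, 67 and 0 of the 144 genes were called higher, and 5, 5 and 17 lower, in the panels from left to right.

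Levels in lpcat and WT were set side by side with no test, since the rule used the lpcat side. On lysoPAF+ONO the 144 genes stood in lpcat at a median of 63.8% of their WT level. All 3 lpcat libraries lay below all 3 WT libraries for 95 of them, beside 11.4% of all tested genes, and above for 8, beside 12.8% of all. With lysoPAF alone the median was 39.6% of the WT level, and all 3 lpcat libraries lay below all 3 WT libraries for 126 of the 144 genes, beside 15.4% of all tested genes. The rule shaped these counts. On control medium the mean of lpcat replicates 1 and 3 was at a median of 127% of WT, and it was above WT for 120 genes. The rule asked for high values in these libraries and left out replicate 2, which lay below both for all 144 genes. The share over all tested genes was not taken, so these values do not measure a difference between the genotypes on control medium.

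Transporters made up one group of the genes, with carriers of mineral nutrients among them. 12 of the 144 rows, or 8.33%, are annotated as a transporter, permease, exchanger or channel. This was so for 2.15% of the rows that met the first condition and 4.19% of those lowered but not restored. The 12 rows also include the purine permeases PUP7, PUP21 and PUP10 and the urea carrier DUR3. NRT1.5 (AT1G32450), the transporter that loads nitrate into the xylem, had 3477, 4012 and 4320.3 normalized counts in lpcat lysoPAF+ONO, 1173, 1121 and 938 in lpcat lysoPAF and 11311 and 10823 in lpcat control replicates 1 and 3, while replicate 2 had 1156. The level with lysoPAF was 9.73% of the control level, and with ONO it was 35.6%, so that it is one of the 30 genes that stayed under 1/2 of control. In WT it had 7039.6, 7382 and 8590.1 with lysoPAF+ONO, 7048, 5547 and 6159 with lysoPAF and 8982, 9233 and 9389.8 on control medium. All WT lysoPAF libraries lay below all WT control libraries (log2 fold change -0.56, SE 0.10, limma adjusted p = 0.022). Without WT control 1, 2 or 3 or WT lysoPAF 2 or 3 the adjusted p was 0.0599 to 0.0868.

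HAK5 (AT4G13420), the high-affinity potassium uptake carrier of the root, went the furthest past its control level. It had 739.5, 1046 and 1046 normalized counts in lpcat lysoPAF+ONO, 39.5, 33.2 and 27.4 in lpcat lysoPAF and 106 and 112 in lpcat control replicates 1 and 3. The level on ONO was thus 867% of the lpcat control level. In WT it had 1276, 1191 and 1684 with lysoPAF+ONO, against 42, 74.7 and 66.2 with lysoPAF and 68.8, 67.1 and 45.9 on control medium. The WT lysoPAF+ONO libraries lay far above the other WT libraries, which overlapped each other. WT lysoPAF+ONO was higher than WT lysoPAF (log2 fold change 4.51, SE 0.24, limma adjusted p = 2.01e-05) and higher than WT control (log2 fold change 4.50, SE 0.24, limma adjusted p = 1.25e-05). Both differences held without any 1 of the 9 WT libraries. The levels in WT lysoPAF and WT control were not called apart (limma adjusted p = 1).

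SULTR1;2 (AT1G78000), the main carrier for sulfate uptake into the root, had 1123, 1019.7 and 1089 normalized counts in lpcat lysoPAF+ONO, 404, 503 and 449 in lpcat lysoPAF and 1649 and 1732 in lpcat control replicates 1 and 3. The WT values were 1770.5, 1649.5 and 1721 with lysoPAF+ONO, 1104, 1113 and 1105 with lysoPAF and 1223, 1263 and 1150.4 on control medium. Here too the WT lysoPAF+ONO libraries lay above all others in WT, by a smaller step, against lysoPAF (log2 fold change 0.63, SE 0.05, limma adjusted p = 0.000173) and against control (log2 fold change 0.50, SE 0.05, limma adjusted p = 0.000383). DUR3 (AT5G45380), a urea carrier, had 188, 188 and 175 in WT lysoPAF+ONO, 113, 107 and 118 in WT lysoPAF and 126, 129.5 and 154 in WT control, and was higher on ONO than with lysoPAF (log2 fold change 0.70, SE 0.096, limma adjusted p = 0.00334). In lpcat its level with lysoPAF was 20.6% of the control level. CHX16 (AT1G64170), of the family of cation/proton exchangers, was likewise higher in WT lysoPAF+ONO, at 631, 629.9 and 594, than in WT lysoPAF, at 357, 408 and 392 (log2 fold change 0.68, SE 0.082, limma adjusted p = 0.00176).

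The remaining transporters were less uniform in WT. SLAH1 (AT1G62280), of the family of slow anion channels, had 20.1, 22.4 and 20.6 normalized counts in lpcat lysoPAF+ONO, 3.52, 1.01 and 4.72 in lpcat lysoPAF and 35.2 and 59.7 in lpcat control replicates 1 and 3, and no WT difference was called. ALMT10 (AT4G00910), of the family of malate channels, had 128, 139 and 157 in WT lysoPAF+ONO and 192, 205 and 240.5 in WT control (log2 fold change -0.58, SE 0.13, limma adjusted p = 0.0193), so its direction on ONO in WT was opposite to that of HAK5. Without WT control 2 or 3 or WT lysoPAF+ONO 1 or 2 the adjusted p was 0.0561 to 0.0736. NIP3;1 (AT1G31885), an aquaporin-like channel, stood at 19.9% of its control level in lpcat lysoPAF and at 49.4% with ONO, and was not called in WT. KCO2 (AT5G46370), a potassium channel named from the table after its values were seen, had 0.879, 2.01 and 0.944 in lpcat lysoPAF against 21.8 and 24.9 in lpcat control replicates 1 and 3. Of 30 tested genes of nitrogen transport and assimilation 3 were among the 144, and of 21 tested genes of potassium, sulfate, boron and malate transport 5 were. Over these whole lists, 12 and 5 genes were higher in WT lysoPAF+ONO than in WT lysoPAF and 2 and 4 were lower.

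**Figure D4:**
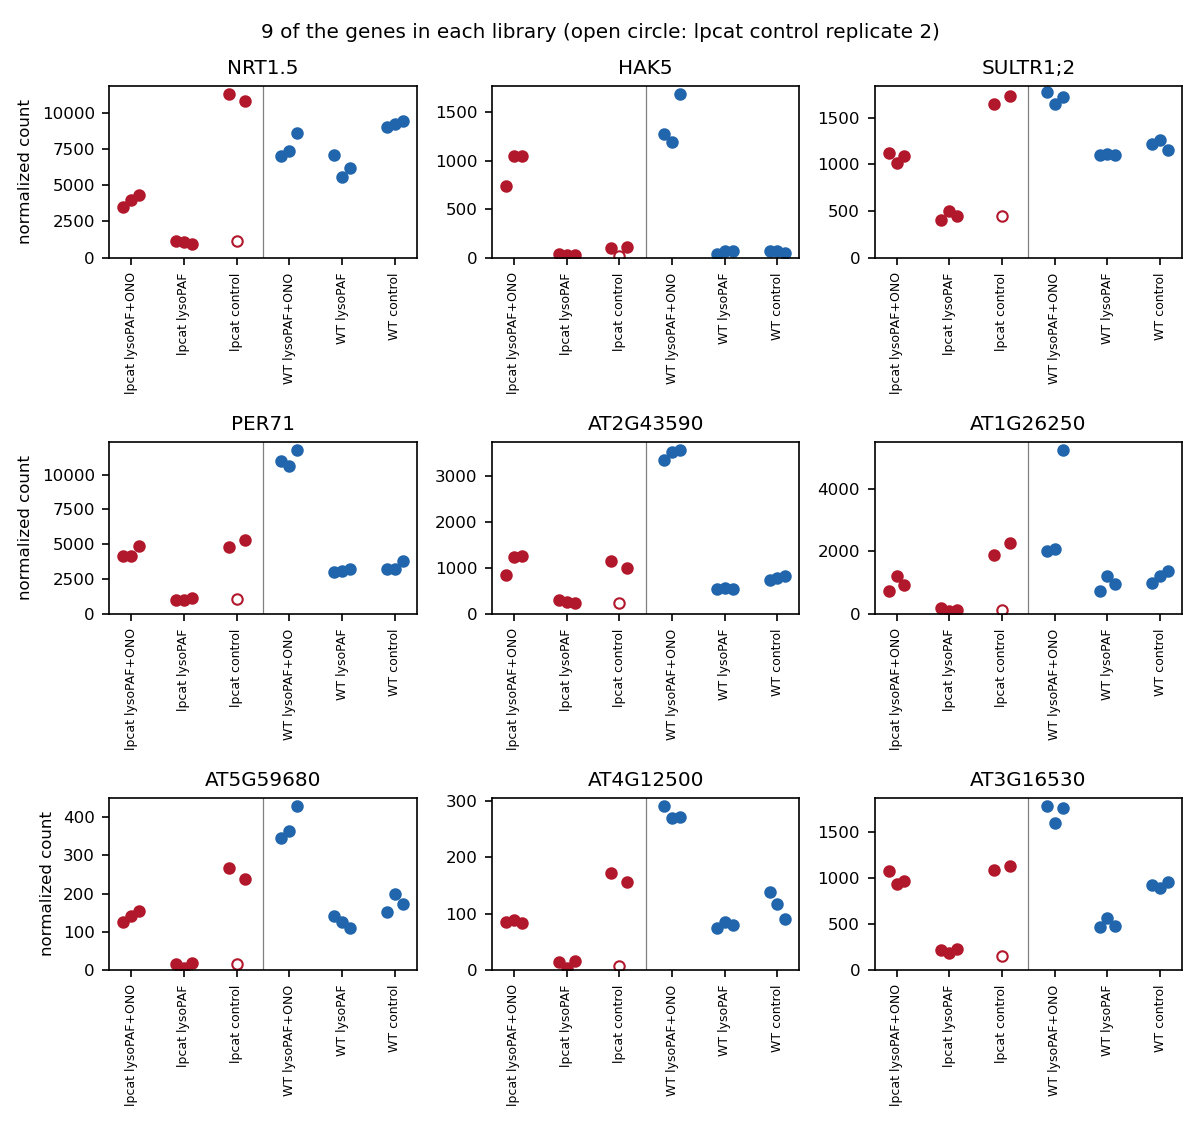
Normalized counts of 9 of the genes in each library (points), for lpcat in red and WT in blue, each medium with 3 replicates and each vertical axis starting at 0. The open circle, lpcat control replicate 2, sits at or just below the lpcat lysoPAF points in each panel, and the WT lysoPAF+ONO points lie above the other WT points in 8 of the 9 panels, NRT1.5 being the exception.

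PUP7, PUP21 and PUP10 (AT4G18197, AT4G18205 and AT4G18210), permeases for purines and related bases, lie next to each other on chromosome 4 with 1 gene between the first pair and 0 between the second. PUP7 had 203, 195 and 233 normalized counts in lpcat lysoPAF+ONO, 65, 69.5 and 73.7 in lpcat lysoPAF and 212 and 278 in lpcat control replicates 1 and 3. In WT it had 272, 245 and 270.4 with lysoPAF+ONO, 143, 166 and 165 with lysoPAF and 208, 195 and 174 on control medium, and WT lysoPAF+ONO was above WT lysoPAF (log2 fold change 0.73, SE 0.095, limma adjusted p = 0.0026). PUP21 showed the same order, with 196, 169.6 and 184 in WT lysoPAF+ONO, 89.1, 112 and 102 in WT lysoPAF and 132, 124 and 123 in WT control (log2 fold change 0.85, SE 0.10, limma adjusted p = 0.00186 for lysoPAF+ONO against lysoPAF). PUP10 differed from its neighbours in WT with lysoPAF alone, where it had 39.5, 41.6 and 54.7 against 23.7, 31.6 and 35.9 on control medium. The lowest WT lysoPAF library lay above the highest WT control library, but the difference was not called (log2 fold change 0.56, SE 0.20, limma adjusted p = 0.142). These 3 were all of the 13 tested purine permeases that met the rule. They are similar to each other in sequence, so that reads may have been shared between them.

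Of 15 tested genes of iron reduction, transport and storage 2 were among the 144. FRO4 (AT5G23980), of the ferric reductase oxidase family, had 225, 228 and 228 in lpcat lysoPAF+ONO, 68.6, 63.4 and 57.6 in lpcat lysoPAF and 456 and 393 in lpcat control replicates 1 and 3. Its WT level was higher with lysoPAF+ONO, at 397, 406 and 371, than with lysoPAF, at 201, 221 and 196 (log2 fold change 0.92, SE 0.10, limma adjusted p = 0.00113). VTL5 (AT3G25190), of the family of vacuolar iron transporters, stood at 34.3% of its control level in lpcat lysoPAF and at 73.5% on ONO, and no WT difference was called.

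Receptor kinases were a frequent kind of protein among the 144 genes. 14 rows, or 9.72%, carry such an annotation, beside 1.26% of the rows over the first condition and 3.20% of those lowered but not restored. 7 of them belong to the malectin-like LRR kinases (LRR-I), a family of surface receptors that includes sensors of microbes, and they are 7 of 35 tested genes of that family. In lpcat lysoPAF, 15 of the 23 family members over the first condition were at most 1/2 of the mean of control replicates 1 and 3. This was so for 550 of all 17179 rows over the first condition and for 9 of 10 genes of shoot photosynthesis. The rule used these values, and the list was chosen with earlier results known, so the count is a description only. AT5G59680 had 125, 141 and 153 normalized counts in lpcat lysoPAF+ONO, 14.1, 4.03 and 17.9 in lpcat lysoPAF and 266 and 239 in lpcat control replicates 1 and 3, a 21-fold fall. In WT it had 346, 363 and 429.6 with lysoPAF+ONO, 140.3, 126 and 109 with lysoPAF and 153, 198 and 173 on control medium. Its WT lysoPAF+ONO libraries lay above all other WT libraries, both against lysoPAF (log2 fold change 1.59, SE 0.13, limma adjusted p = 0.00021) and against control (log2 fold change 1.12, SE 0.13, limma adjusted p = 0.000902).

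AT1G05700, of the same family, had 84.6, 103 and 97.3 in lpcat lysoPAF+ONO, 10.6, 14.1 and 17 in lpcat lysoPAF and 203 and 233 in lpcat control replicates 1 and 3. The WT values were 271, 283 and 336 with lysoPAF+ONO, 84.9, 114 and 95.7 with lysoPAF and 149, 161 and 154 on control medium, and the groups did not overlap. Both the step on ONO against lysoPAF (log2 fold change 1.59, SE 0.12, limma adjusted p = 0.000141) and the fall with lysoPAF against control (log2 fold change -0.66, SE 0.12, limma adjusted p = 0.0233) were called. Without WT control 1, 2 or 3 or WT lysoPAF 1 or 3 the adjusted p was 0.0589 to 0.0859 for the fall. AT1G51890 gave a like picture, with 370.2, 341 and 412 in WT lysoPAF+ONO, 119, 126 and 145 in WT lysoPAF and 162, 207 and 228 in WT control (log2 fold change 1.52, SE 0.14, limma adjusted p = 0.000331 for lysoPAF+ONO against lysoPAF). Its fall with lysoPAF was also called (log2 fold change -0.60, SE 0.14, limma adjusted p = 0.0438). The adjusted p for that fall was 0.0669 to 0.132 without WT control 2 or 3, WT lysoPAF 1, 2 or 3 or WT lysoPAF+ONO 1 or 2. AT2G28960 rose in WT lysoPAF+ONO against WT lysoPAF by 0.61 on the log2 scale and against WT control by 0.59 (limma adjusted p = 0.00155 and 0.00114).

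AT1G07550 and AT2G14510 were among the 8 genes with the largest falls in lpcat. AT1G07550 had 13.4, 9.36 and 10.8 in lpcat lysoPAF+ONO, 2.64, 2.01 and 2.83 in lpcat lysoPAF and 72.5 and 69.7 in lpcat control replicates 1 and 3. AT2G14510 had 20.7, 23.4 and 16.7 in lpcat lysoPAF+ONO, 3.52, 1.01 and 5.67 in lpcat lysoPAF and 62.2 and 62.2 in lpcat control replicates 1 and 3. Neither came back to more than 1/2 of its control level. MEE39 (AT3G46330), of the same family, had 34.7, 31.6 and 49.3 in WT lysoPAF+ONO, 23.5, 36.9 and 25.2 in WT lysoPAF and 19.8, 19.2 and 11 in WT control, so that its WT lysoPAF+ONO libraries lay above all 3 WT control libraries. Over all 35 tested LRR-I kinases, 13 were higher and 1 lower in WT lysoPAF+ONO against WT lysoPAF, and 16 were higher against WT control.

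Receptor kinases outside LRR-I also met the rule. CRK18 (AT4G23260), 1 of 12 tested cysteine-rich kinases of a cluster on chromosome 4, had 20.7, 16.8 and 24.6 in lpcat lysoPAF+ONO, 7.91, 8.05 and 3.78 in lpcat lysoPAF and 37.3 and 44.8 in lpcat control replicates 1 and 3. AT5G59260, a lectin receptor kinase, fell the most of all 144 genes, by 78.8-fold, with 1.22, 6.55 and 11.8 in lpcat lysoPAF+ONO, 0.879, 1.01 and 0 in lpcat lysoPAF and 45.6 and 53.5 in lpcat control replicates 1 and 3. Its lpcat lysoPAF libraries held 1 read or none, so the size of that fall has little precision. A disease resistance annotation was carried by 5 further rows, 3.47% beside 0.600% of the rows over the first condition and 2.96% of those lowered but not restored. One of them, AT5G46260, of the TIR-NBS-LRR class of intracellular immune receptors, had 7.3, 11.2 and 5.9 in lpcat lysoPAF+ONO, 0.879, 2.01 and 0.944 in lpcat lysoPAF and 29 and 36.1 in lpcat control replicates 1 and 3, and no WT difference was called for it.

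Secreted proteins of the cell wall formed another group. Class III peroxidases use hydrogen peroxide to cross-link wall polymers and lignin. 4 of 67 tested peroxidases met the rule. PER71 (AT5G64120) had 4174, 4186 and 4895 normalized counts in lpcat lysoPAF+ONO, 955, 978 and 1151 in lpcat lysoPAF and 4832 and 5304 in lpcat control replicates 1 and 3. In WT it had 10963, 10614 and 11796 with lysoPAF+ONO, 3007, 3067 and 3222 with lysoPAF and 3219, 3210.5 and 3814 on control medium. The WT lysoPAF+ONO libraries lay above all other libraries of both genotypes, and the rise was called against lysoPAF (log2 fold change 1.84, SE 0.079, limma adjusted p = 6.08e-06) and against control (log2 fold change 1.71, SE 0.079, limma adjusted p = 5.67e-06). PER34 (AT3G49120) had 8414, 8608 and 8928 in lpcat lysoPAF+ONO, 3446, 3604 and 3711 in lpcat lysoPAF and 10309 and 12349.7 in lpcat control replicates 1 and 3. WT roots had 11512, 10965 and 13578 with lysoPAF+ONO, 6382, 6365 and 6408 with lysoPAF and 8243, 7931 and 8217 on control medium, and these groups did not overlap. The WT rise on ONO against lysoPAF was called (log2 fold change 0.91, SE 0.081, limma adjusted p = 0.000336), and so was the fall with lysoPAF (log2 fold change -0.35, SE 0.081, limma adjusted p = 0.0478). Without WT control 1, 2 or 3, WT lysoPAF 1, 2 or 3 or WT lysoPAF+ONO 1 or 2 the adjusted p was 0.0565 to 0.137 for the fall. PER50 (AT4G37520) was higher in WT lysoPAF+ONO than in WT lysoPAF by 0.66 on the log2 scale (limma adjusted p = 0.00125), and PER25 (AT2G41480) was not called in WT. Over all 67 peroxidases the picture was mixed, with 16 higher and 10 lower in WT lysoPAF+ONO against WT lysoPAF.

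Extensins are rigid wall glycoproteins. AT1G26250, a proline-rich extensin-like protein, had 724, 1209.6 and 928 in lpcat lysoPAF+ONO, 174, 96.7 and 133 in lpcat lysoPAF and 1886 and 2283 in lpcat control replicates 1 and 3. WT had 2005, 2087 and 5255 with lysoPAF+ONO, 722, 1205 and 963 with lysoPAF and 988, 1204 and 1376 on control medium. The third WT lysoPAF+ONO library was far above the others (log2 fold change 1.57, SE 0.35, limma adjusted p = 0.0274 against lysoPAF). Without WT control 2 or WT lysoPAF 1, 2 or 3 the adjusted p was 0.0551 to 0.107. PEX3 (AT2G15880), an LRR-extensin, had 1090, 1111 and 1376 in WT lysoPAF+ONO, 842, 801 and 819 in WT lysoPAF and 1052, 1179.5 and 1282 in WT control, with a fall for lysoPAF against control (log2 fold change -0.51, SE 0.099, limma adjusted p = 0.0286). Without WT control 2 or 3 or WT lysoPAF 1, 2 or 3 the adjusted p was 0.0771 to 0.0984. EPR1 (AT2G27380), known from the seed endosperm, had 5.48, 78.6 and 64.9 in lpcat lysoPAF+ONO, 0.879, 3.02 and 0 in lpcat lysoPAF and 26.9 and 26.1 in lpcat control replicates 1 and 3, so that the lpcat lysoPAF+ONO libraries lay on either side of the control level. PERK4, an extensin-like receptor kinase, stood at 42.8% of its control level in lpcat lysoPAF and at 93.8% on ONO.

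Chitinases and pathogenesis-related proteins act on microbial walls or are made after attack. 7 of 20 tested genes of this list met the rule, and in WT lysoPAF+ONO against WT lysoPAF 10 of the 20 were higher, 5 of the 7 members among them. The chitinase gene AT2G43590 had 844, 1244 and 1254 in lpcat lysoPAF+ONO, 291, 255 and 232 in lpcat lysoPAF and 1141 and 1005 in lpcat control replicates 1 and 3. WT roots held 3344, 3526 and 3577 with lysoPAF+ONO, 534, 551 and 538 with lysoPAF and 735, 779.6 and 830.1 on control medium, and none of these groups overlapped. Its rise on ONO was called against lysoPAF (log2 fold change 2.68, SE 0.055, limma adjusted p = 3.84e-08) and against control (log2 fold change 2.16, SE 0.055, limma adjusted p = 1.36e-07), and so was its fall with lysoPAF (log2 fold change -0.53, SE 0.055, limma adjusted p = 0.0028). Each of these calls held without any 1 of the 9 WT libraries. CHI (AT2G43570), a second chitinase with 1 gene between the pair on chromosome 2, had 259, 312 and 314 in lpcat lysoPAF+ONO, 61.5, 41.3 and 38.7 in lpcat lysoPAF and 105 and 90.8 in lpcat control replicates 1 and 3. WT held 681, 748 and 541 with lysoPAF+ONO, 86.5, 99.3 and 93.6 with lysoPAF and 96.5, 79.6 and 55.9 on control medium, a rise on ONO (log2 fold change 2.79, SE 0.19, limma adjusted p = 8.25e-05 against lysoPAF) with no call for lysoPAF alone.

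AT3G16530, a lectin of the legume type, had 1077, 936 and 967 in lpcat lysoPAF+ONO, 218, 185 and 226 in lpcat lysoPAF and 1079.9 and 1126 in lpcat control replicates 1 and 3. WT had 1784, 1589 and 1757 on lysoPAF+ONO, 467, 559 and 475 on lysoPAF and 919.6, 886 and 953 on control medium. The lysoPAF libraries were the lowest in WT, and in lpcat only lpcat control replicate 2, at 148, lay below them. LysoPAF+ONO stood at 90% of the mean of control replicates 1 and 3 in lpcat and at 186% of control in WT. The fall with lysoPAF (log2 fold change -0.88, SE 0.078, limma adjusted p = 0.00162) and the rise on ONO against lysoPAF (log2 fold change 1.77, SE 0.078, limma adjusted p = 6.97e-06) were both called, and held without any 1 of the 9 WT libraries. AT4G16260, a glycosyl hydrolase, was an exception in this group. It had 3929, 4992 and 4625 in lpcat lysoPAF+ONO, 2688, 1422 and 1769 in lpcat lysoPAF and 4740.3 and 4903 in lpcat control replicates 1 and 3, while in WT it had 3825, 3624 and 6181 with lysoPAF+ONO, 4186, 4871 and 4695 with lysoPAF and 3380, 3354 and 3681 on control medium, with no call. PROPEP2 (AT5G64890), the precursor of a wound peptide, stood at 46.2% of its control level in lpcat lysoPAF and was not called in WT.

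Small secreted or lipid-binding proteins were represented by 3 of 20 tested EARLI1-type lipid transfer proteins and 2 of 24 major latex proteins. AZI3 (AT4G12490) and AT4G12500 lie on chromosome 4 with 1 gene between them. AZI3 had 23.7, 25.3 and 22.6 in lpcat lysoPAF+ONO, 11.4, 3.02 and 5.67 in lpcat lysoPAF and 186 and 207 in lpcat control replicates 1 and 3. AT4G12500 had 85.2, 88.9 and 83.5 in lpcat lysoPAF+ONO, 14.1, 3.02 and 15.1 in lpcat lysoPAF and 172 and 156 in lpcat control replicates 1 and 3. Both fell over 10-fold with lysoPAF, but AT4G12500 returned to 52.4% of its control level and AZI3 to 12.2%. In WT, AT4G12500 had 292, 271 and 272 with lysoPAF+ONO, 74, 85.1 and 79.9 with lysoPAF and 139, 118 and 90.8 on control medium (log2 fold change 1.79, SE 0.14, limma adjusted p = 0.00019 for lysoPAF+ONO against lysoPAF), whereas AZI3 had 77.8, 79 and 119 with lysoPAF+ONO, 45.4, 95.5 and 73.6 with lysoPAF and 145, 147 and 138 on control medium and was not called. MLP328 (AT2G01520), a major latex protein, had 19939, 17888 and 17906 in lpcat lysoPAF+ONO, 6077, 8382 and 8068 in lpcat lysoPAF and 18966 and 21335 in lpcat control replicates 1 and 3, and in WT its 3 media were not called apart.

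Some enzymes of defence metabolites and lignin precursors were higher on ONO in WT. IGMT1 (AT1G21100), which methylates indole glucosinolates, had 2102, 2285 and 2535 in lpcat lysoPAF+ONO, 535, 741 and 749.9 in lpcat lysoPAF and 2485 and 2643 in lpcat control replicates 1 and 3. WT had 3992, 3907 and 3998 with lysoPAF+ONO, 2205, 1719 and 1862 with lysoPAF and 2215, 2189 and 2439.5 on control medium (log2 fold change 1.05, SE 0.087, limma adjusted p = 0.000231 against lysoPAF). AT1G30720 and AT1G30730 are adjacent genes of berberine bridge enzyme-like oxidases. AT1G30720 had 761, 669.9 and 755 in WT lysoPAF+ONO, 444, 297 and 368 in WT lysoPAF and 375, 403 and 380.1 in WT control. AT1G30730 had 959, 1006 and 1125 in WT lysoPAF+ONO, 330.2, 287 and 318 in WT lysoPAF and 248, 275 and 313 in WT control, so the step on ONO was larger for AT1G30730 (log2 fold change 1.72, SE 0.098, limma adjusted p = 3.13e-05) than for AT1G30720 (log2 fold change 0.99, SE 0.13, limma adjusted p = 0.0024). That difference between the neighbours was not tested. These 3 genes are the ones that met the rule in a list of 25 tested genes for indole glucosinolate and indolic enzymes. The annotations of AT1G30720 and AT1G30730 name a berberine family and no indole compound. Of the 25, 13 were higher and 1 lower in WT lysoPAF+ONO against WT lysoPAF. FAH1 (AT4G36220), the ferulate hydroxylase on the way to sinapate and syringyl lignin, had 369, 403 and 442 in lpcat lysoPAF+ONO, 159, 156 and 148 in lpcat lysoPAF and 520.2 and 525 in lpcat control replicates 1 and 3. In WT its level was 355, 352 and 351 with lysoPAF against 561, 550.4 and 581 on control medium (log2 fold change -0.68, SE 0.083, limma adjusted p = 0.00571), a fall that held without any 1 of the 9 WT libraries.

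Single genes of oxidation and detoxification differed in WT. DOX1 (AT3G01420), an alpha-dioxygenase that makes oxylipins from fatty acids, had 9115, 9248 and 9265 in lpcat lysoPAF+ONO, 4492, 4776 and 4418 in lpcat lysoPAF and 11664 and 10267 in lpcat control replicates 1 and 3. WT had 15606, 16342 and 15108 with lysoPAF+ONO, 7697, 7013 and 7042 with lysoPAF and 7136, 7369 and 7671 on control medium (log2 fold change 1.11, SE 0.067, limma adjusted p = 4.19e-05 against lysoPAF). GSTF2 (AT4G02520), a glutathione transferase, had 8937, 8754 and 12057 in WT lysoPAF+ONO, 4315, 4555 and 4659.9 in WT lysoPAF and 5677, 5546 and 6386 in WT control (log2 fold change 1.12, SE 0.12, limma adjusted p = 0.00092 for lysoPAF+ONO against lysoPAF). GulLO2 (AT2G46750), of a family of sugar lactone oxidases, and the cytochrome P450 CYP71B23 (AT3G26210) rose on ONO against WT control by 1.07 and 1.45 on the log2 scale (limma adjusted p = 8.8e-06 and 8.8e-06). GSTF14 and the cytochrome P450 CYP71A20, named after their values were seen, were not called on ONO against WT lysoPAF (limma adjusted p = 0.33 and 0.643). GSTF14 was called lower in WT lysoPAF than in WT control (log2 fold change -1.31, SE 0.30, limma adjusted p = 0.0447). It is one of the 17 falls, whose count was sensitive to single libraries. CYP96A4 (AT5G52320) had 10.1, 16.1 and 14.7 in WT lysoPAF against 34.8, 28.8 and 39.9 in WT control (log2 fold change -1.29, SE 0.23, limma adjusted p = 0.0198). Without WT control 1, 2 or 3 or WT lysoPAF 1 or 3 the adjusted p was 0.05 to 0.0669.

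Among regulators, the CCCH zinc finger gene ATCTH (AT2G25900) was one of the genes that fell with lysoPAF in WT. It had 882, 788 and 915 in WT lysoPAF+ONO, 334, 289 and 303 in WT lysoPAF and 589.6, 577 and 508 in WT control, and the fall with lysoPAF (log2 fold change -0.85, SE 0.085, limma adjusted p = 0.00222) held without any 1 of the 9 WT libraries. In lpcat it had 262, 369.5 and 414 with lysoPAF+ONO, 132, 208 and 175 with lysoPAF and 493 and 567 in control replicates 1 and 3. DRM1 and DRM2 (AT1G28330 and AT2G33830), genes associated with dormant buds and low energy, stood at 29.7% and 49.9% of their control levels in lpcat lysoPAF and at 69.3% and 119% on ONO. DRM2 was higher in WT lysoPAF+ONO, at 4464, 4367 and 5027, than in WT control, at 2579.9, 2294 and 2648 (log2 fold change 0.88, SE 0.14, limma adjusted p = 0.00481), and DRM1 was not called. DIN1 (AT4G35770), a dark-inducible gene, was the member whose lpcat control replicate 2, at 114, lay nearest to replicates 1 and 3, at 134 and 131. CKX4 (AT4G29740), which degrades cytokinin, had 189, 192 and 214 in WT lysoPAF+ONO against 104, 99.7 and 73.8 in WT control (log2 fold change 1.11, SE 0.13, limma adjusted p = 0.00087).

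A minority of the genes fell on ONO in WT. AT5G52710, of the copper transport protein family, had 2.81, 5.27 and 11.5 in WT lysoPAF+ONO, 26.1, 20.8 and 37.9 in WT lysoPAF and 23.7, 24 and 35.9 in WT control (log2 fold change -2.09, SE 0.42, limma adjusted p = 0.0195 against lysoPAF). Without WT lysoPAF 1 or 3 or WT lysoPAF+ONO 1 or 2 the adjusted p was 0.0575 to 0.0773. AT2G47560, a RING-type gene, had 60.9, 65.3 and 71 in WT lysoPAF+ONO, 95, 101.2 and 114 in WT lysoPAF and 116, 114 and 149.7 in WT control (log2 fold change -0.93, SE 0.13, limma adjusted p = 0.00279 against control). GLYI4 (AT1G15380), of the glyoxalase family, had 902, 910 and 1024 in WT lysoPAF+ONO against 1326, 1324 and 1180.3 in WT control (log2 fold change -0.43, SE 0.086, limma adjusted p = 0.0125). Without WT control 2 or WT lysoPAF+ONO 1 or 2 the adjusted p was 0.0529 to 0.0541. KTI1 (AT1G73260), a Kunitz-type protease inhibitor, had 1342, 1376 and 1591 in WT lysoPAF+ONO and 2103, 1685 and 1834 in WT lysoPAF (log2 fold change -0.38, SE 0.094, limma adjusted p = 0.0399). Without WT control 1, 2 or 3, WT lysoPAF 1 or 3 or WT lysoPAF+ONO 1 or 2 the adjusted p was 0.0551 to 0.134. AT4G35720, of unknown function, and AT2G29340, of an epimerase family, were also lower in WT lysoPAF+ONO than in WT lysoPAF. Without WT lysoPAF 1, 2 or 3 or WT lysoPAF+ONO 1 or 3 the adjusted p was 0.0589 to 0.0885 for AT4G35720. Without WT lysoPAF 1, 2 or 3 or WT lysoPAF+ONO 1, 2 or 3 the adjusted p was 0.0504 to 0.101 for AT2G29340. In lpcat all of these genes were at least 2 times higher with lysoPAF+ONO than with lysoPAF, as the rule required.

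Genes of seeds and shoots among the 144 differed widely between libraries of 1 group. CRA1 (AT5G44120), a cruciferin of the seed store, had 14, 119 and 133 in lpcat lysoPAF+ONO, 3.52, 67.5 and 12.3 in lpcat lysoPAF and 98.5 and 131 in lpcat control replicates 1 and 3. WT libraries had 32.8, 35.8 and 47 with lysoPAF+ONO, 3.36, 5.67 and 15.8 with lysoPAF and 38.8, 42.2 and 92.8 on control medium. Its fall with lysoPAF in WT was called (log2 fold change -2.79, SE 0.50, limma adjusted p = 0.0213). Without WT control 1, 2 or 3 or WT lysoPAF 1 or 2 the adjusted p was 0.0503 to 0.0798. CRU3 (AT4G28520), a second cruciferin, had 1.22, 72 and 84.5 in lpcat lysoPAF+ONO, 1.76, 40.3 and 3.78 in lpcat lysoPAF and 90.2 and 90.8 in lpcat control replicates 1 and 3. RBCS2B (AT5G38420), a small subunit of Rubisco, had 3.75, 5.27 and 12.6 in WT lysoPAF+ONO, 0, 4.73 and 9.46 in WT lysoPAF and 13.4, 22.1 and 387 in WT control, so a single WT control library carried its mean. RBCS3B (AT5G38410), its neighbour on chromosome 5, showed 30.1, 24 and 256 in WT control. In both, the high value is that of WT control replicate 3, the WT library with the highest sum of shoot photosynthesis genes, to which these genes belong.

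Some of the 144 genes were neighbours. 141 could be placed among protein-coding genes, and 17 of these lay in 9 pairs with at most 2 genes between them. Besides the pairs already named, these were AT1G52800 with AT1G52820 on chromosome 1, AT2G19970 with PR-1-LIKE and AT2G29320 with AT2G29340 on chromosome 2. 24 of the 144 rows share their identifier with another row of the table, so the counts of those genes may be split. Of the 144 genes 49 stand in one of 15 lists of transporters, receptors, wall, defence and metabolism genes, and 95 in none. Over these 95, 36 were higher and 5 lower in WT lysoPAF+ONO against WT lysoPAF, 23 higher and 4 lower against WT control, and 8 lower in WT lysoPAF against WT control. The other lists gave small counts in WT lysoPAF+ONO against WT lysoPAF. Of the cysteine-rich kinases 3 were higher, of the EARLI1-type proteins 2 were higher and 3 lower, and of the major latex proteins 3 were higher and 2 lower. Of 22 phenylpropanoid enzymes 13 were higher and 1 lower, of 22 extensins 3 were higher, and of 14 low-energy genes 6 were higher. Of 16 cytokinin genes 4 were higher, of the purine permeases 2 were higher, and of the iron genes 5 were higher and 1 lower. Among the lists of cell type markers the median log2 fold change in this comparison was 0.35 for root hair, -0.02 for endodermis, -0.12 for cortex, 0.25 for xylem, 0.20 for phloem, 0.42 for root cap, 0.02 for dividing cells and -0.29 for shoot photosynthesis. Among the 144 rows, 13 carry no annotation or one of unknown function. AT4G04990, one of these, had 316, 318 and 326 in WT lysoPAF+ONO against 79.1, 97.8 and 78.8 in WT control (log2 fold change 1.9, SE 0.12, limma adjusted p = 2.73e-05).

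The 250 bases before the annotated start were read for 141 of them from the TAIR10.1 assembly, with RefSeq gene models. The table itself gives no coordinates, and the labels name TAIR10. A W-box core, TTGAC, which WRKY factors bind, was found on either strand before 82 of the 141 genes, or 58.2%, beside 45.5% of 20944 tested genes and 51.1% of 393 genes that were lowered but not restored. 37 of the 141, or 26.2%, held it 2 or more times, beside 14.5% of all and 18.1% of the 393 that were lowered but not restored. The G-box CACGTG was found before 2.84% beside 7.34% of all, the GCC-box GCCGCC before 1.42% beside 1.9%, the as-1 core TGACG before 21.3% beside 19.4%, the DRE core CCGAC before 5.67% beside 12.5%, the telo-box AAACCCTA before 3.55% beside 3.63%, and the evening element AAATATCT before 4.96% beside 4.95%. TTGAC and TGACG overlap where TTGACG is read. A match is a description of the letters and does not show binding. The stretches below belong to the potassium and nitrate carriers, the chitinase pair and the peroxidases described above, 5′ to 3′ on the strand of the gene, with TTGAC and its complement GTCAA in capitals. They are chr4:7802252-7802501 (minus strand) for HAK5, chr1:11719989-11720238 (minus) for NRT1.5, chr2:18082777-18083026 (minus) for AT2G43590, chr2:18077518-18077767 (minus) for CHI, chr5:25661008-25661257 (minus) for PER71 and chr3:18207401-18207650 (plus) for PER34.
HAK5: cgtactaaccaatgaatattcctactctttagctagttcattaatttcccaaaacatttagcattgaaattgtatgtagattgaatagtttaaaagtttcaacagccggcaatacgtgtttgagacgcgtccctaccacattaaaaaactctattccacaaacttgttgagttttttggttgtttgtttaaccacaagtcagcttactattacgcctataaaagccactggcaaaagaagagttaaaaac
NRT1.5: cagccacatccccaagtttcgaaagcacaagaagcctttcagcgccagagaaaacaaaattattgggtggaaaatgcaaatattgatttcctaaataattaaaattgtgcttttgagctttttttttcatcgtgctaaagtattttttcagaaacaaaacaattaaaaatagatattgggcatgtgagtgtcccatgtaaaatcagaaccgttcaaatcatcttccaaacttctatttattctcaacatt
AT2G43590: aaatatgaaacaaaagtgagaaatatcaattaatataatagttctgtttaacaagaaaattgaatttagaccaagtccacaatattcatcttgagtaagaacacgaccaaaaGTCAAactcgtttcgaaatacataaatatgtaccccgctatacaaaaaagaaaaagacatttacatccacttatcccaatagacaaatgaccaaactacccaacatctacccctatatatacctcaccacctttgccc
CHI: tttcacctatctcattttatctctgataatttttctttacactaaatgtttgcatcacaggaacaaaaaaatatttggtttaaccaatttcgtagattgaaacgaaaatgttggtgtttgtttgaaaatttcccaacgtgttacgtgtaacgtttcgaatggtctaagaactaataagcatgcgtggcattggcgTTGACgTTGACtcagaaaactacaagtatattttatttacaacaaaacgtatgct
PER71: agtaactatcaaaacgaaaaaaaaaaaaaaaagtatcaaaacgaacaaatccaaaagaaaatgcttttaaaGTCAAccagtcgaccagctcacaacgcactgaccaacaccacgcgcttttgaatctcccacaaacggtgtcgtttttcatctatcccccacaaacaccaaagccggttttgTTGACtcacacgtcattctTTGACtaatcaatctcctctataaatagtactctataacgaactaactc
PER34: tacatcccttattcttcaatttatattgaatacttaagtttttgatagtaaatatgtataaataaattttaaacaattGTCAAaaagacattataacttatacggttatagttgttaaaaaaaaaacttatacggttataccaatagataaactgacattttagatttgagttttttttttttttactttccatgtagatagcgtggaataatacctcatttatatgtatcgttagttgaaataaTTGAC
These windows hold the core 0 times for HAK5 and NRT1.5, 1 time for AT2G43590, 2 times for CHI and PER34 and 3 times for PER71. No match says only that these letters are not in the window.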

How the data were processed

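Roots of WT and lpcat seedlings on 3 media were sequenced with paired ends in 18 libraries, 3 a group, grouped by the sample labels. Per the labels, the authors used STAR 2.4.0j, StringTie 1.0.3, HTSeq 0.6.0 and DESeq2 1.12.4 with TAIR10. The deposited signal is a normalized count, that is a read count divided by the size factor the authors estimated for its library. Whether reads were counted by strand is not given in the sources used here, so genes that overlap others are uncertain. Dividing each library by its smallest step (0.609 to 1.24) turned all 400470 values above 0 into whole reads within 0.001 of a read, and those reads were used in the edgeR and DESeq2 alternatives.

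The test took the 23760 genes with a total of 5 reads or more, and was run in the 9 WT libraries with limma 3.58.1 in R 4.3.3, with trend, a pseudocount of 1 and Benjamini-Hochberg adjustment. Fold changes are on the log2(value + 1) scale, which understates changes of low genes, and differences of a few reads cannot be resolved at 8681898 to 16767002 reads a library. The lpcat values chose the genes and were not tested. The genes, the 15 lists and the 8 lists of cell type markers were chosen with earlier results of these data known. Genes were named by rule: the 8 with the highest WT control mean, the 8 with the largest fall in lpcat, the 6 smallest p a direction among calls of each WT comparison, up to 4 a list, the 3 rows on either side of each threshold, and the 5 highest and 5 lowest ratios of WT lysoPAF+ONO to WT control. PERK4, KCO2, MEE39, GSTF14, CYP71A20, NIP3;1, PROPEP2, neighbours of members and the genes of the closing section that fall outside the rule were named after their values were seen. Alternatives were pseudocounts of 0.5 and 5, no filter, a mean of at least 10, fits with all 18 or with 17 libraries, a replicate block, edgeR 4.0.16 and DESeq2 1.42.0, equal totals, other floors, ratios and means in the rule, and leaving out each library. limma was tested on simulated data.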

Additional observations from a re-analysis of the deposited data

Results flagged for a closer look

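For 11 of the 144 genes the libraries lay in opposite directions in the genotypes with lysoPAF. All 3 lpcat lysoPAF libraries lay below lpcat control replicates 1 and 3, as they did for every one of the 144. All 3 WT lysoPAF libraries lay above all 3 WT control libraries, which was so for 12.7% of all tested genes. That is a larger share than 11 of 144, so a rise in WT was not more frequent among the 144 than among all genes. The difference between genotypes was not tested, since the rule chose the genes by the fall in lpcat, and lpcat control replicate 2 took no part. The WT lysoPAF mean was 171.5% of WT control for MEE39, 162% for AT1G52800, 156% for AT3G05950, 149% for PUP10, 140.2% for CKX4, 132% for AT4G16260, 125% for KTI1, 116% for AT2G29340, 114% for CYP71B23, 111% for VTL5 and 102% for AT5G28610. None of these differences in WT was called by limma, and some are small. MEE39 had 23.5, 36.9 and 25.2 normalized counts in WT lysoPAF against 19.8, 19.2 and 11 in WT control, and 11.4, 8.05 and 4.72 in lpcat lysoPAF against 28 and 18.7 in lpcat control replicates 1 and 3. AT4G16260 had 4186, 4871 and 4695 against 3380, 3354 and 3681 in WT and 2688, 1422 and 1769 against 4740.3 and 4903 in lpcat.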

How the results depend on the processing

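Of 92 calls for named genes, 27 held in every alternative and 0 changed direction; the other 65 were lost with the 18 libraries in 1 fit, against 3 with the 17 libraries that leave out lpcat control replicate 2. The 18 libraries together called 23 of the 144 genes higher and 1 lower for WT lysoPAF+ONO against WT lysoPAF, 17 and 0 for WT lysoPAF+ONO against WT control, and 0 lower for WT lysoPAF against WT control, and over all genes 421 lower in the first and 376 higher and 214 lower in the third. The 17 libraries gave 8 lower genes for lysoPAF+ONO against control and 1 higher for lysoPAF against control, with 962 higher over all genes. For lysoPAF against control, the lower genes were 10 with no filter, 39 at a mean of at least 10, 38 by edgeR and 30 by DESeq2, and the higher ones 2, 3 and 2 by the last 3; over all genes a mean of at least 10 gave 997 higher and 779 lower, edgeR 1118 and 706, and equal totals 297 lower. A mean of at least 10 gave 8 lower genes for lysoPAF+ONO against lysoPAF and 12 against control, and edgeR gave 8 and 11, with 1033 lower over all genes in the first, where equal totals gave 1173. Leaving out 1 WT library gave 48 to 68 higher and 0 to 5 lower genes for lysoPAF+ONO against lysoPAF (639 to 1289 and 280 to 683 over all), 37 to 48 and 2 to 11 against control (1167 to 1784 and 601 to 1089), and 0 to 1 and 4 to 22 for lysoPAF against control (143 to 730 and 85 to 639). The 5 lower genes of lysoPAF+ONO against lysoPAF became 1, 2 and 0 without WT lysoPAF replicate 1, 2 and 3 and 1 without WT lysoPAF+ONO replicate 1 or 2; the 5 lower ones against control became 3 without WT control replicate 2 or 3, 2 without WT lysoPAF+ONO replicate 2 and 11 without replicate 3. The cause of these shifts was not tested. Ratios of 1.5 and 3 in the rule gave 414 and 51 genes; other floors, medians, equal totals and left-out lpcat libraries gave 102 to 186 genes, of which 102 to 144 were among the 144.

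Deviations from the group mean had correlations of -0.036 to 0.167 between same-numbered WT libraries and of -0.172 to 0.122 between differently numbered ones. With 3 libraries a group these values cannot settle if the numbers pair the samples, and the main test did not pair them. With a replicate block, 69 genes were higher and 4 lower for lysoPAF+ONO against lysoPAF, 50 and 6 against control, and 0 and 16 for lysoPAF against control. Genes with few reads, such as AT5G59260 and AT5G46260, have little precision at this depth.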
